A study of Drosophila melanogaster with 4 samples.

Results

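The proteasome genes described here are the 47 of 14029 genes in the deposited values whose symbols begin with Prosalpha or Prosbeta, or with Rpn or Rpt and a subunit number. Of these, 32 encode constitutive subunits. The other 15 carry a T or an R after the subunit number and are the testis paralogs. The constitutive genes comprise 7 alpha ring subunits, 7 beta ring subunits, 8 genes of the base, 8 genes of the lid and the 2 ubiquitin receptors Rpn10 and Rpn13. The members lie on chromosomes 2L (8 genes), 2R (12), 3L (7), 3R (14) and X (6).

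The proteasome degrades proteins that carry ubiquitin chains. Its core particle is a barrel of alpha rings, which gate the entrance, and beta rings, which hold the protease sites. The regulatory particle caps the barrel, where its base unfolds the substrate with a ring of ATPases (Rpt) and its lid removes ubiquitin and holds the assembly together. In eukaryotes the subunits are needed in fixed proportions, and their genes are often regulated together. Drosophila has duplicated many of these genes, and the duplicates are known for expression in the male germ line, where Prosalpha6T is needed for sperm formation.

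RNA was sequenced from whole Drosophila larvae of the third instar, raised at 25 °C and labelled male, with 2 libraries per genotype, each from a pool of larvae. Wild type larvae came from the Canton S stock (genotype +/+). The Inr-a duplication larvae (genotype pcf11/+) came from w[a]; Pcf11Dup/CyO GFP males crossed with Canton S females, and were taken for lacking the green fluorescence of the balancer chromosome. Inr-a, also called Pcf11, encodes an mRNA 3′ end processing factor and is known as a dosage-sensitive modifier of other genes. The paternal chromosomes of the duplication larvae came from another stock, so the duplication and the genetic background cannot be told apart. The methods describe no sexing step for the duplication larvae.

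Whole counts per library were worked back from the deposited mean CPM (counts scaled to the library total) of each genotype, and within a genotype A denotes the deeper library and B the other. Total counts ranged from 11304266 to 15423445 per library. All 47 members passed the filter on low counts, and 11519 genes entered a limma fit to log2 values of TMM-scaled CPM (CPM divided by a trimmed-mean scaling factor), with p-values adjusted over all of them. Pcf11 itself (2R, 14860936 to 14871071, BDGP6.54) had 60.4 and 58.0 CPM in wild type A and B and 83.3 and 94.997 CPM in duplication A and B, with a limma adjusted p of 0.180.

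The proteasome genes were lower on average in the Inr-a duplication larvae, and the testis paralogs were lower by more than the constitutive subunits, but no single gene passed the test and the difference between both sets was not tested. The summed level of the 32 constitutive subunits was 15481 (A) and 15578 (B) CPM in wild type, and 13193 (A) and 11400 (B) CPM in the duplication. All pairs of values below follow this order. The means were 15529.6 ± 68.5 and 12297 ± 1268 CPM (SD, n = 2), a ratio of 0.792. For the 15 testis paralogs the sums were 484 and 504 CPM in wild type and 334 and 297 CPM in the duplication, with means of 494 ± 14.4 and 316 ± 25.7 CPM (SD, n = 2) and a ratio of 0.639. The genotypes did not overlap in either sum. With 2 libraries on each side, the smallest two-sided p of an exact permutation test is 0.333, and no test was run on the sums. In whole larvae, fewer cells of a type and less RNA per cell cannot be told apart.

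The mean was lower in the duplication for 28 of the 32 constitutive subunits and for 15 of the 15 testis paralogs, where 48.5% of all genes tested were lower. The median log2 fold change was -0.32 for the constitutive subunits and -0.65 for the testis paralogs, beside 0.02 over all genes. On TMM-scaled values, both duplication libraries lay below both wild type libraries for 19 of the 32 and 14 of the 15 genes, against 26.7% of all genes. No member lay above in both, against 26.9% of all genes. In limma, 0 of the 47 members passed an adjusted p of 0.05 in either direction, beside 0.486% of all genes that passed as lower and 1.7% as higher. At an unadjusted p below 0.05, 9 of the 15 testis paralogs and 0 of the 32 constitutive subunits were lower, beside 8.61% of all genes, and no member was higher, beside 12.1%. Without duplication library A, 2 constitutive subunits and 5 paralogs passed the adjusted threshold as lower, beside 4.3% of all genes (488 of 11358). Without wild type library A, 1 constitutive subunit did, beside 0.637% of all genes (73 of 11458). In such a fit the remaining library of a genotype has no replicate and is assumed to vary like the libraries of the other genotype. These p-values measure the spread between pools.

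**Figure D1:**
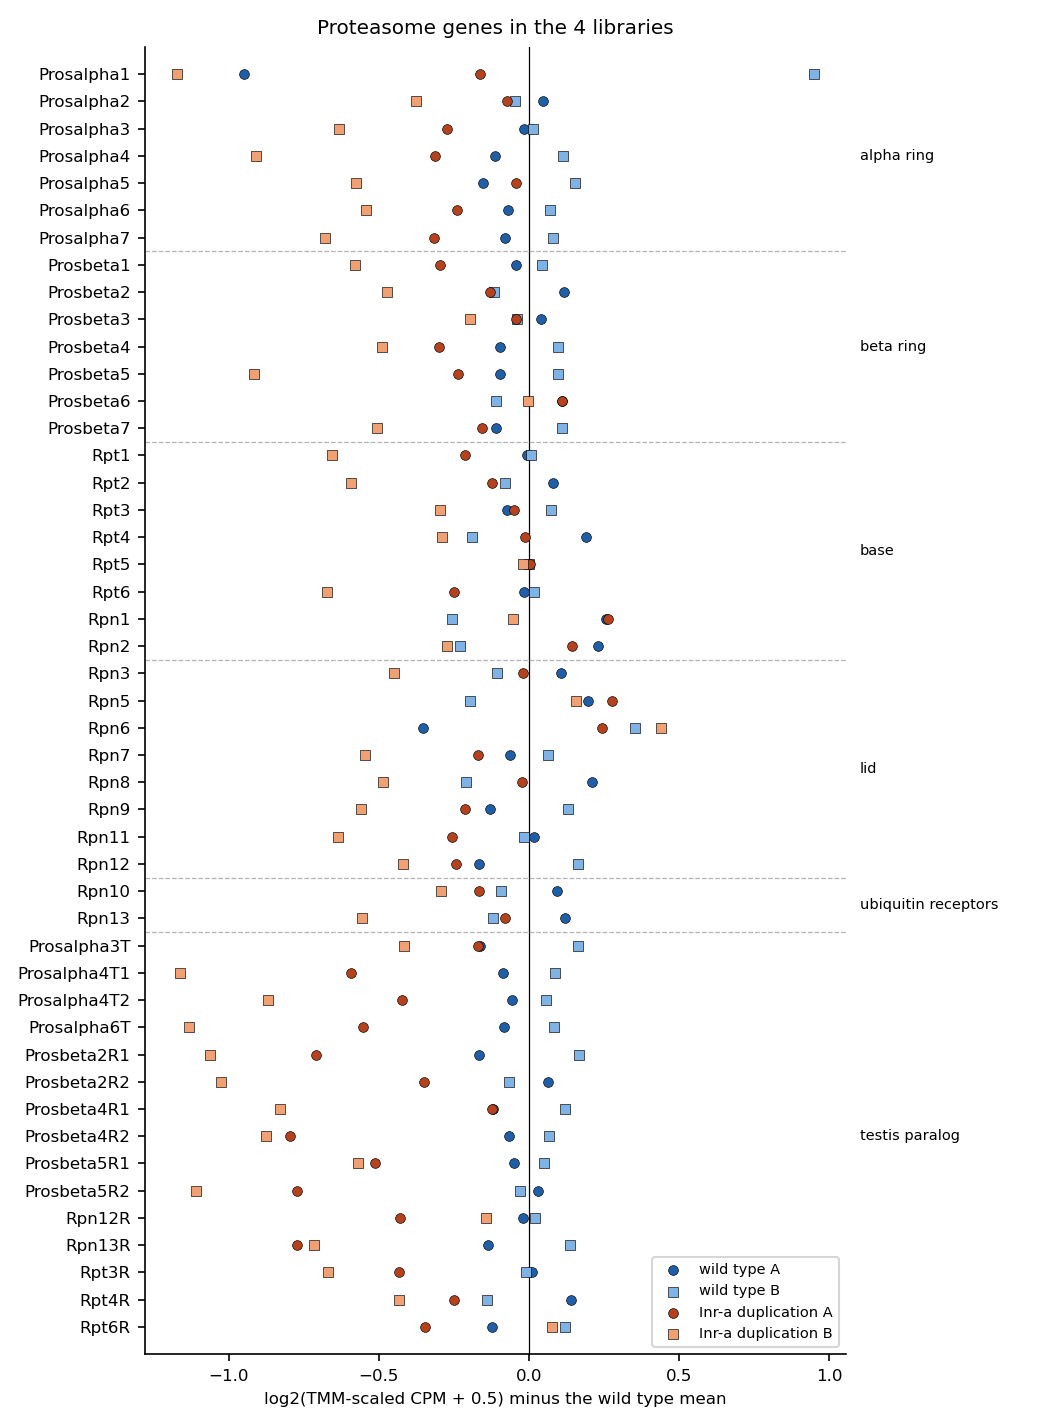
Level of each proteasome gene in the 4 libraries. The horizontal axis gives log2 of TMM-scaled CPM plus 0.5 minus the mean of both wild type libraries, each row is a gene, and dashed lines separate the parts of the complex. Circles are libraries A and squares libraries B, blue for wild type and red or orange for the Inr-a duplication. Most duplication points lie to the left of 0, with library B farther left than library A in most rows, and Prosalpha1 has the widest spread.

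The alpha ring lay furthest below wild type among the constitutive parts. Its 7 genes summed to 3593 and 4006 CPM in wild type and 3052 and 2504 CPM in the duplication, a ratio of 0.731, and all 7 had a lower mean. Prosalpha4, on the X chromosome, had 838 and 986 CPM in wild type and 683 and 497 CPM in the duplication. Both duplication libraries were below both wild type libraries, with a log2 fold change of -0.61 (95% interval -1.23 to 0.01) and a limma adjusted p of 0.247, the lowest among the constitutive subunits. Prosalpha3 had 557 and 571 CPM in wild type and 435 and 374 CPM in the duplication, and Prosalpha6 451 and 499.7 against 374 and 335 CPM. Neither of these 2 genes overlapped between genotypes, at log2 fold changes of -0.45 and -0.39. Prosalpha2, which had the least negative value of the ring, stood at -0.23.

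The beta ring followed, with sums of 3391 and 3566 CPM in wild type against 2858 and 2485 CPM in the duplication, a ratio of 0.768. Of the 3 subunits with a protease site, Prosbeta5, which carries the chymotrypsin-like activity, had 740.2 and 851 CPM in wild type and 628 and 432 CPM in the duplication. Its log2 fold change was -0.58 (95% interval -1.20 to 0.05, adjusted p = 0.272, limma), and leaving out duplication library A gave -0.93 (adjusted p = 0.0472) while leaving out duplication library B gave -0.23 (adjusted p = 0.940). Prosbeta1, of the caspase-like activity, had 513 and 547 CPM in wild type against 402 and 364 CPM, and Prosbeta2, of the trypsin-like activity, 579 and 496 against 457 and 397 CPM. The genotypes were separate for all 3 catalytic subunits, with log2 fold changes of -0.44 for Prosbeta1 and -0.30 for Prosbeta2. Prosbeta4, a structural subunit, had 431 and 496 CPM in wild type and 350.3 and 338 CPM in the duplication. Prosbeta6 was the only gene of the ring with a higher mean, at 267 and 231 CPM in wild type and 250.1 and 255 CPM in the duplication, and its libraries overlapped.

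The base was mixed. Its summed level was 4233 and 3862 CPM in wild type and 3600 and 3093 CPM in the duplication, a ratio of 0.827. On TMM-scaled values its sums overlapped, at 4198 and 3811 in wild type and 3821.5 and 2977 in the duplication. On these values 3 of its 8 genes lay below wild type in both duplication libraries and none above, beside 26.7% and 26.9% of all genes. Among the ATPases, Rpt6 had 721 and 741 CPM in wild type and 573 and 471 CPM in the duplication, a log2 fold change of -0.46 (95% interval -1.06 to 0.13). Rpt3 had 376 and 419 against 357 and 332 CPM, and Rpt4 399 and 308 against 323 and 295 CPM. These 2 ATPases overlapped between genotypes on the scaled values, at -0.17 and -0.15. Rpt5 stood at -0.01 (95% interval -0.55 to 0.54), the value nearest to 0 among the members. Rpn1, a scaffold that binds ubiquitin receptors and ubiquitin, had 424 and 298 CPM in wild type and 398 and 352 CPM in the duplication, with a log2 fold change of 0.11 whose sign was reversed without wild type library B (-0.17) or without duplication library A (-0.07).

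In the lid, 6 of 8 genes had a lower mean and 2 a higher one. The sums were 3258 and 3274 CPM in wild type against 2880.5 and 2605 CPM in the duplication, a ratio of 0.840. Rpn11, the deubiquitinase that strips the ubiquitin chain from the substrate, had 516 and 507 CPM in wild type and 399 and 338 CPM in the duplication, with a log2 fold change of -0.45 (95% interval -1.02 to 0.13, adjusted p = 0.358, limma). Rpn12, whose mammalian and yeast counterparts join late in lid assembly, had 251 and 317 CPM against 222 and 217 CPM. Both genes were separate between genotypes. Rpn6, which clamps the lid to the core particle, had 192 and 314 CPM in wild type and 271 and 343 CPM in the duplication. Its log2 fold change of 0.34 (95% interval -0.25 to 0.93) was the highest of the 47 members, yet its genotypes overlapped and the value was -0.01 without wild type library A. Rpn5, a scaffold of the lid, had 306 and 234 against 302 and 306 CPM, a log2 fold change of 0.22.

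The ubiquitin receptors Rpn10 and Rpn13 bind ubiquitin chains on incoming substrates. Rpn10 had 455 and 402 CPM in wild type and 355 and 358 CPM in the duplication, and Rpn13 had 551 and 469 against 448 and 355 CPM. The log2 fold changes were -0.23 and -0.32, and on TMM-scaled values Rpn10 was separate between genotypes while Rpn13 overlapped.

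**Figure D2:**
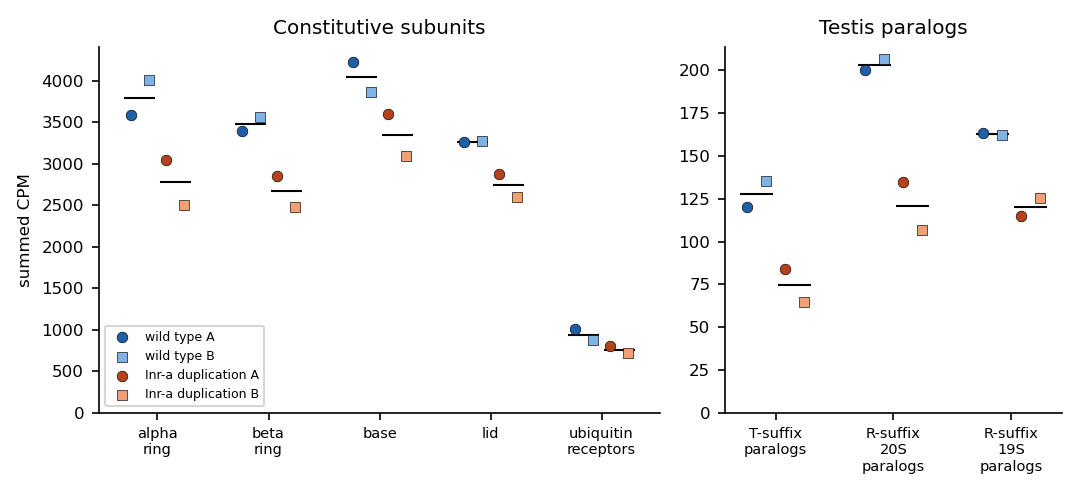
Summed CPM (vertical axes, from 0) of the genes of each part of the proteasome, for the constitutive subunits on the left and the testis paralogs on the right. Points are the 4 libraries and horizontal lines the means of the genotypes (n = 2). In each of the 8 parts both duplication libraries lie below both wild type libraries, with ratios from 0.583 for the T-suffix paralogs to 0.840 for the lid. This holds for the unscaled CPM drawn here, and the base overlapped on TMM-scaled values.

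The testis paralogs are low in RNA from whole larvae. Their summed level was 3.13% and 3.24% of that of the constitutive subunits in wild type, and 2.53% and 2.61% in the duplication, so the share was lower in both duplication libraries. Single paralogs had between 88 and 978 counts in a library. The 4 alpha paralogs with a T suffix summed to a ratio of 0.583, the 6 beta paralogs with an R suffix to 0.594, and the 5 regulatory particle paralogs to 0.738.

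Among the alpha paralogs, Prosalpha6T had 594 and 605 counts in wild type and 491 and 328 in the duplication, whose libraries are deeper, or 47.3 and 53.5 CPM against 31.8 and 23.3 CPM. Prosalpha4T1 had 325 and 332 against 260 and 174 counts (25.9 and 29.4 against 16.9 and 12.4 CPM). The genotypes were separate for both, with log2 fold changes of -0.84 (95% interval -1.41 to -0.28, adjusted p = 0.0988, limma) and -0.88 (-1.46 to -0.29, adjusted p = 0.0953). Prosalpha4T2 had 497 and 487 against 441 and 324 counts, a log2 fold change of -0.65. Prosalpha3T had the fewest counts of this group, 92 and 106 against 105 and 88, or 7.33 and 9.38 against 6.81 and 6.25 CPM, and a log2 fold change of -0.29. All 4 genes lay below wild type in both duplication libraries on the CPM scale. On TMM-scaled values Prosalpha3T was barely separate, at 7.26 and 9.25 against 7.23 and 6.01.

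The beta paralogs held the lowest p-value of the members. Prosbeta5R2, on 2L, had 441 and 382 counts in wild type and 287 and 227 in the duplication, or 35.1 and 33.8 against 18.6 and 16.1 CPM. Its log2 fold change was -0.94 (95% interval -1.499 to -0.38) with an unadjusted p of 0.00197 and an adjusted p of 0.0640 in limma. The gap between the genotypes was wider than the gap within either of them. Prosbeta2R1, on X, had 21.1 and 26.8 CPM in wild type against 13.4 and 11.4 CPM, and Prosbeta2R2, which had the highest mean CPM of the paralogs in both genotypes, had 77.9 and 71.5 against 54.4 and 37.4 CPM. Their log2 fold changes were -0.89 (adjusted p = 0.0899) and -0.69 (adjusted p = 0.166, limma). Prosbeta5R1 had 19.99 and 21.6 against 13.4 and 14.2 CPM, a log2 fold change of -0.54. The neighbours Prosbeta4R1 and Prosbeta4R2 lie on the forward strand of 2L (2653046 to 2653926 and 2655394 to 2657102). Prosbeta4R2 had 21.2 and 23.4 CPM in wild type and 11.7 and 12.2 CPM in the duplication, a log2 fold change of -0.84 with little spread within a genotype. Prosbeta4R1 had 24.9 and 29.6 against 23.2 and 15.5 CPM, and its duplication libraries were unlike each other. On TMM-scaled values it was barely separate, at 24.72 and 29.24 against 24.64 and 14.90.

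As a group the regulatory particle paralogs differed less, at a median log2 fold change of -0.34 against -0.74 for the alpha and -0.76 for the beta paralogs. This contrast was not tested, and Rpn13R lay lower than several alpha and beta paralogs. Rpt3R had 794 and 707 counts in wild type and 667 and 569 in the duplication (63.2 and 62.5 against 43.2 and 40.4 CPM), a log2 fold change of -0.55 (95% interval -1.09 to -0.02, adjusted p = 0.227, limma). Rpn13R, on X, had 139 and 153 against 100 and 105 counts, at 11.1 and 13.5 against 6.48 and 7.45 CPM and -0.74 on the log2 scale. Both were separate between genotypes. Rpt4R had 46.9 and 38.7 CPM in wild type against 33.3 and 32.3 CPM, and Rpn12R had 19.99 and 20.7 against 13.9 and 18.9 CPM. Rpt6R, with 22.5 and 26.8 CPM in wild type and 17.9 and 26.6 CPM in the duplication, was the only paralog whose genotypes overlapped. Its log2 fold change was -0.13 (95% interval -0.70 to 0.44), and 0.06 without duplication library A.

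Since a paralog and its parent subunit are read from the same library, their counts can be set against each other without any scaling. The paralog made up a smaller percentage of its parent in both duplication libraries for 8 of 15 pairs and a larger one for 0, and 7 pairs overlapped. By the means of the genotypes the percentage was lower for 12 of the 15, and the median log2 change of the ratio was -0.29. The pairs are not independent, since Prosalpha4, Prosbeta2, Prosbeta4 and Prosbeta5 are each shared between paralogs. The share of unrelated gene pairs with such a shift was not computed. Prosalpha6T stood at 10.5% and 10.7% of Prosalpha6 in wild type and 8.51% and 6.95% in the duplication. Rpt3R stood at 16.8% and 14.9% of Rpt3 against 12.1% and 12.2%, and Prosbeta2R1 at 3.64% and 5.41% of Prosbeta2 against 2.93% and 2.88%. The genotypes were separate in these 3 pairs. Prosbeta5R1 was at 2.70% and 2.54% of Prosbeta5 in wild type and 2.14% and 3.29% in the duplication, so its ratio showed no shift of one sign. Rpt6R went the other way by its mean, from 3.12% and 3.62% of Rpt6 to 3.13% and 5.65%.

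**Figure D3:**
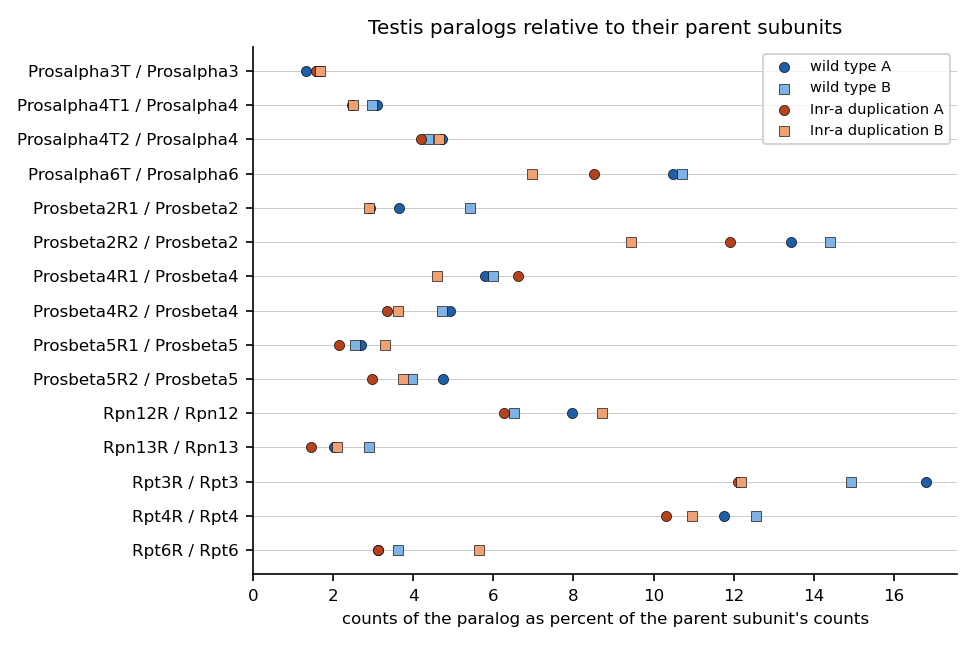
Counts of each testis paralog as a percentage of the counts of its parent subunit in the same library (horizontal axis, from 0), with 1 row per pair and 1 point per library. Both red or orange duplication points lie left of both blue wild type points in 8 of the 15 rows, and in none do both lie to the right.

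The summed level of other testis genes was also lower in the duplication. Of a list of 28 genes of spermatocytes and spermatids, 27 were tested, and their summed level was 1691 and 1794 CPM in wild type and 1247 and 1194 CPM in the duplication, a ratio of 0.7005. Of the 27 genes, 18 had a lower mean, 12 lay below wild type in both duplication libraries and 3 above, beside 48.5%, 26.7% and 26.9% of all genes. Their median log2 fold change was -0.24. The 3 above were bol, can and vis, at log2 fold changes of 0.46, 0.57 and 0.33. The highest mean CPM of the list belonged to betaTub85D and Mst87F, at 582 and 301 in wild type against 388 and 153 in the duplication. Of all genes tested, 0.486% passed the adjusted threshold as lower and 1.7% as higher. Pglym87, a testis form of the glycolytic phosphoglycerate mutase, fell, from 123 and 108 CPM to 58.2 and 47.002 CPM, with a log2 fold change of -1.10 (95% interval -1.65 to -0.55) and an adjusted p of 0.0262 in limma. It was the only gene of the list past the threshold, and it was not past it without wild type library A (adjusted p = 0.0741) or without duplication library B (0.223). The paralogs summed to 28.6% and 28.1% of this list in wild type and to 26.8% and 24.9% in the duplication. No gene of the list was at 0. The 7 early germline genes had a median log2 fold change of 0.19 and summed to between 33.1 and 38.1 CPM in wild type and between 32.8 and 39.8 CPM in the duplication, with none past the threshold. Of 9 Y-linked fertility genes 5 were tested, with a median of 0.12 and sums of 5.04 to 8.20 CPM in wild type against 5.84 to 8.73 CPM. By longest transcript, the spermatocyte and spermatid list had a median of 1209 bases, the early germline list 2349 and the Y-linked list 4002. Over all genes, the median log2 fold change was -0.13 for lengths of 1141 to 1862 bases. It was 0.08 for 1863 to 3120 bases and 0.35 for longer genes. The part of transcript length in the values of these lists was not tested. The part of testis content in the levels of the paralogs was not tested either.

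Prosalpha1 had the widest spread between libraries of the members. It lies on the reverse strand of 2R from 7827303 to 7828678, and a neighbour of nearly the same size, CG30382, lies on the same strand from 7830413 to 7831771. The annotation used here (release 115) names CG30382 Prosalpha1R, while its symbol in the deposited values keeps it outside the 47 genes. Prosalpha1 had 203 and 701 counts in wild type and 407 and 200 in the duplication, and CG30382 had 7768 and 7347 against 7184 and 5993. Prosalpha1 thus received 2.55% and 8.71% of the counts of the pair in wild type and 5.36% and 3.23% in the duplication, and how reads divide between such similar genes is uncertain. The pair together had 635 and 712 CPM in wild type and 492 and 439.7 CPM in the duplication, a ratio of 0.692. Taken alone, Prosalpha1 had a log2 fold change of -0.67, which ran from -1.62 (adjusted p = 0.000549, limma) without wild type library A to 0.27 without wild type library B. Leaving out duplication library A gave -1.19 (adjusted p = 0.0156) and leaving out duplication library B gave -0.16 (adjusted p = 0.959).

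**Figure D4:**
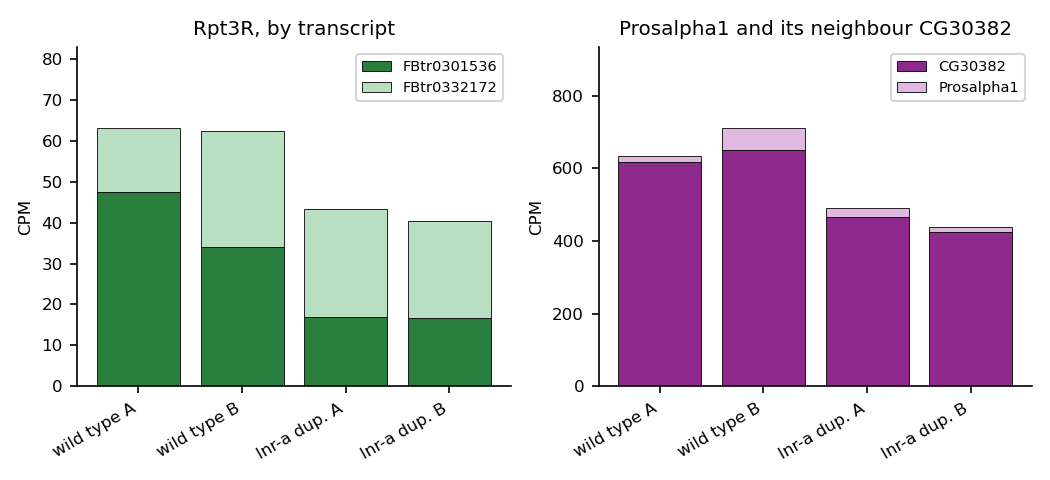
CPM (vertical axes, from 0) in each library of Rpt3R, split by its 2 annotated transcripts (left), and of Prosalpha1 with its neighbour CG30382 (right). Stacked bars are single libraries. The darker Rpt3R transcript holds 75.3% and 54.6% of the gene's counts in wild type and 39.4% and 41.5% in the duplication, while Prosalpha1 never holds more than 8.71% of its pair.

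Levels of different genes can be compared per transcript length only. On that scale (CPM divided by transcript length, set to the same total over all transcripts in both genotypes) and with Prosalpha1 and CG30382 taken as 1 gene, the constitutive subunits were not equal. The highest was 6.94 and 8.56 times the lowest in wild type and 4.82 and 4.87 times in the duplication. The spread around the mean level was 43.3% and 49.8% (coefficient of variation over 32 genes) in wild type and 41.1% and 36.5% in the duplication, so it was narrower in both duplication libraries. Prosalpha4 had the highest mean in wild type, with levels of 764 and 899, and Prosalpha2 in the duplication, with levels of 689.7 and 617. Rpn1 had the lowest mean in both, at 149 and 105 in wild type and 143 and 127 in the duplication. Prosalpha4 and Prosalpha2 are 1176 and 920 bases long, and Rpn1 is 3041. Over all genes, the median log2 fold change was -0.21 for lengths of 242 to 1139 bases and 0.35 for 3121 bases or more. The part of transcript length in the narrower spread was not tested. Of the 31 pairs of neighbours in the order of levels, the libraries were separate for 4 in wild type and 2 in the duplication, so most neighbouring ranks did not differ beyond their spread. The mean levels of the paralogs ranged from 10.1 to 60.7 in wild type and from 7.01 to 38.1 in the duplication.

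Most members showed a single form. Of 72 annotated transcripts, 66 were tested one by one and 0 passed an adjusted p of 0.05 in limma, and 27 genes had 1 transcript. For 19 of the 20 genes with several transcripts the same transcript led in both genotypes, with its share of the gene moving by 10 percentage points or less. The exception was Rpt3R. Its transcript FBtr0301536 had 598 and 386 counts in wild type and 263 and 236 in the duplication, while FBtr0332172 had 196 and 321 against 404 and 333 counts. FBtr0301536 led in wild type and FBtr0332172 in the duplication. These annotated transcripts are 1432 and 1414 bases long, so the division of reads between them by the quantifier is uncertain. Over the 20 genes with several transcripts, the leading share was higher in both duplication libraries for 5, lower for 1 (Rpt3R) and overlapped for 14. Of the 5, Prosbeta4 moved most, from 57.3% and 63.9% in wild type to 72.5% and 65.5% in the duplication. The same count over other genes was not made. In Prosalpha4T2, the minor transcript FBtr0072350 had 51 counts in duplication library B and 0 in the other 3 libraries.

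Genes around the proteasome were less uniform. Of 9 assembly factors and regulators 8 were tested. Their median log2 fold change was -0.27, with 0 past the adjusted limma threshold, beside 0.486% of all genes as lower and 1.7% as higher. REG, the activator that binds the core particle in the nucleus, had 141 and 154 CPM in wild type and 113 and 100.3 CPM in the duplication, and Pomp, a chaperone of core assembly, 207 and 263 against 185 and 186 CPM. Both are among the 5 of the 8 genes that lay below wild type in both duplication libraries, beside 26.7% of all genes. Of the 8 genes, 1 lay above in both on TMM-scaled values, beside 26.9% of all genes. Usp14, a deubiquitinase of the proteasome, was higher in both on the TMM scale (171 and 152 against 181 and 175 TMM-scaled CPM), and Uch-L5, another, had 92.4 and 110.0 against 98.9 and 107 TMM-scaled CPM and overlapped. All 5 genes of the list of regulators of proteasome genes had a higher mean, where 48.5% of all genes tested were lower. Their median was 0.32, again with 0 past the threshold. Among them is cnc, the transcription factor of the Nrf family that can induce proteasome genes in flies, and it had 143 and 111 CPM in wild type and 128 and 184 CPM in the duplication, a log2 fold change of 0.32 (95% interval -0.24 to 0.88) with overlapping genotypes. By longest transcript, the list of regulators had a median of 2670 bases, and cnc has 6954. Over all genes, the median log2 fold change was 0.08 for lengths of 1863 to 3120 bases and 0.35 for longer genes. The part of transcript length in the values of the regulators was not tested. The 5 tested genes of ubiquitin and its activation had a median of -0.05. The 6 of shuttle receptors and the segregase p97 had a median of -0.10. Each of these lists had 0 past the threshold. At an unadjusted p below 0.05 none of the genes in these 4 lists was called in limma, beside 8.61% of all genes as lower and 12.1% as higher.

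Markers of several somatic tissues differed between the genotypes. Among all genes tested, 1.7% passed the adjusted threshold in limma as higher and 0.486% as lower. Of 6 hemocyte genes, 4 rose past it (Hml, NimC1 and the prophenoloxidases PPO1 and PPO2). The hemocyte list summed to 214 and 106 CPM in wild type against 335 and 497 CPM in the duplication. Of 5 muscle genes tested, the actin Act57B and the myosin heavy chain Mhc rose, 2 genes in all. The muscle list summed to 1846 and 1373 CPM against 2731 and 4451 CPM. Of 4 midgut genes tested, 2 rose, the digestive enzymes Amy-d and betaTry. The midgut list summed to 1559 and 1314 CPM against 2431 and 1829.7 CPM. Without wild type library B, 3 of these 4 hemocyte genes, 0 of the 2 muscle genes and 1 of the 2 midgut genes were past the threshold, and without duplication library B 3, 1 and 2 were. The medians of these lists were 1.499, 0.90 and 0.77 on the log2 scale. The second amylase gene, Amy-p, had 691 and 254 CPM in wild type and 365 and 363 CPM in the duplication. Its log2 fold change was -0.17. The second trypsin gene, alphaTry, had 527 and 727 against 895 and 522 CPM. Both genes overlapped between genotypes. How reads divide between the amylase genes was not examined. The 5 neuron genes had a median of 0.12 and the 6 sex genes 0.14, with 0 past the threshold. Of the female yolk protein genes in that list, Yp1 was at 0 in all libraries and Yp3 had 41 and 24 counts in wild type and 22 and 20 in the duplication. Of the salivary gland list only Sgs1 could be tested, with a log2 fold change of 0.77, and none of the 6 fat body genes. The part of tissue content in the levels of the proteasome genes was not tested.

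A pair of measured properties moved with the result. The first is the contrast within the duplication, where library A exceeded library B by a median log2 difference of 0.35 for the constitutive subunits and 0.25 for the paralogs, but by -0.00 over all genes. The wild type libraries differed by -0.02 and -0.13 for the same groups. Set against wild type library A, the median difference of duplication library A was -0.13 for the constitutive subunits and -0.45 for the paralogs, and that of duplication library B was -0.47 and -0.71. The median over the constitutive subunits was -0.14 without duplication library B and -0.52 without duplication library A. For the paralogs these medians were -0.43 and -0.85.

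The other property is transcript length. Over all genes the median log2 fold change was -0.21, -0.13, 0.08 and 0.35 in 4 bins of equal gene number from the shortest to the longest, and 29 of the 32 constitutive subunits and 15 of the 15 paralogs lie in the 2 bins of shortest genes. The median lengths were 1304 and 1107 bases, beside 1862 bases over all genes. With the trend of each library with length taken out, the medians were -0.19 for the constitutive subunits and -0.48 for the paralogs, beside 0.01 over all genes, and 27 of the 32 and 14 of the 15 genes were below 0. Rpn1 and Rpn2, the longest members at 3041 and 3412 bases, were at 0.11 and -0.06 before this correction.

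**Figure D5:**
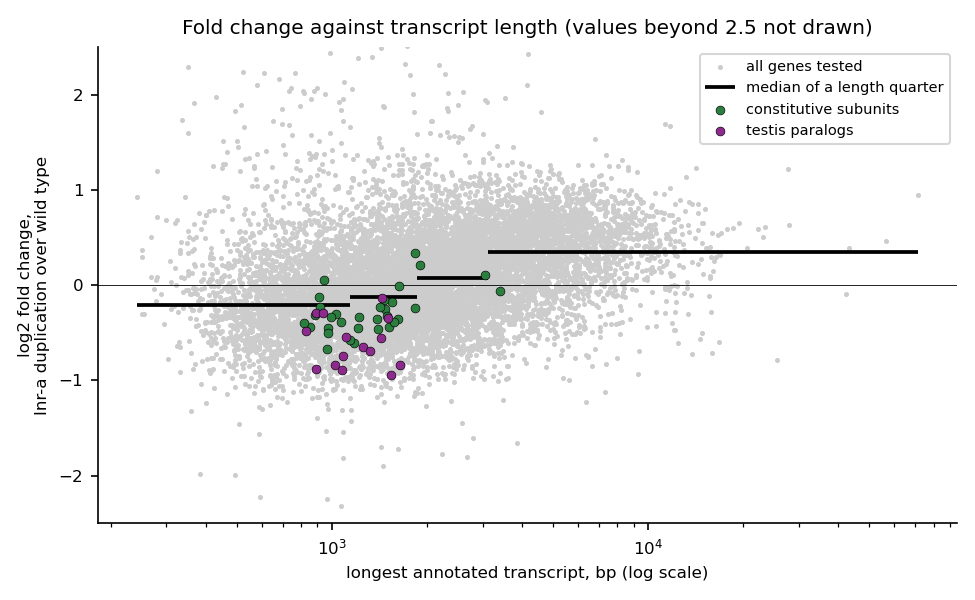
Log2 fold change of the Inr-a duplication over wild type (vertical axis) against the length of the longest annotated transcript in bases (horizontal axis, log scale). Grey points are the 11489 tested genes with a length, of which 40 lie beyond 2.5 in either direction and are not drawn, black bars are the medians of the 4 length bins, and green and purple points are the constitutive subunits and the testis paralogs. The bars climb from -0.21 to 0.35, and most purple points lie under the bar of their bin.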

How the data were processed

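RNA was sequenced from 2 libraries of wild type and 2 of Inr-a duplication larvae. Reads were trimmed by the authors (Trimmomatic), and transcripts of Ensembl BDGP6 were quantified with Salmon (version 1.4.0, also named in the submitters' processing notes) and passed through tximport. The deposited values are the mean CPM per genotype of 30090 transcripts. The deposited ratio column holds the authors' own comparison and was not used. DESeq2, the tool of the authors for differential expression, was not applied here.

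For each mean CPM, every pair of whole counts that yields it was listed, given library totals estimated from low values (12558720 and 11304266 in wild type, 15423445 and 14084653 in the duplication). A single pair existed for 99.4% (wild type) and 99.7% (duplication) of transcripts above 0, and several pairs for 144 and 85. Genes with such a transcript, 149 of 14029, have no values per library here and were not tested. They hold 40.2% and 40.6% of the CPM, and no member is among them. The names A and B are not the study's replicate numbers. Transcripts were summed by symbol. Positions come from BDGP6.54, in which 29964 of the transcripts were found.

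Genes needed 10 counts at the median library size in 2 libraries and 15 in all. Tests used limma 3.58.1 (trend, R 4.3.3) on log2(TMM-scaled CPM + 0.5), so a fold change of a low gene is understated, with p-values adjusted by Benjamini-Hochberg (threshold 0.05). The design foresaw limma for CPM and a count model for counts, and the deposited unit is CPM. TMM factors ranged from 0.942 to 1.04. The fit was also run on simulated counts with a common dispersion, known fold changes and no length trend. No conclusion here rests on that run.

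The members and the 14 gene lists were chosen with earlier results of these data known. Named genes are every testis paralog and its parent, the catalytic subunits, the ubiquitin receptors, Rpn11, the constitutive subunits with the 3 highest and 3 lowest fold changes, and, of the lists, genes past the threshold and cnc. Prosalpha2, Prosbeta6, Rpt5, Rpn2, CG30382, REG, Pomp, Usp14, Uch-L5, Sgs1, Yp1 and Yp3 fall outside this rule and were named after their values were seen. The same holds for betaTub85D, Mst87F, bol, can, vis, Amy-p and alphaTry. Alternatives were other scalings, filters, pseudocounts, a length correction, tests by transcript and leaving out each library.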

Additional observations from a re-analysis of the deposited data

How the results depend on the processing

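No paired analysis was possible because the recovered libraries carry no replicate numbers. No member passed the adjusted threshold in limma under library size scaling, median-of-ratios or quantile scaling, no filter, pseudocounts of 0.1 or 2 CPM, the length correction or the test by transcript, and the lowest adjusted p of a member gene among them was 0.0591. Leaving out each library in turn gave 0 to 2 constitutive subunits and 0 to 5 testis paralogs past the threshold. The calls arose without duplication library A (Prosalpha1, Prosbeta5, Prosalpha4T1, Prosalpha6T, Prosbeta2R1, Prosbeta2R2 and Prosbeta5R2) and without wild type library A (Prosalpha1). The medians over the same settings ran from -0.52 to -0.14 for the constitutive subunits and from -0.85 to -0.43 for the paralogs. Of the 33 members named by the rule, Prosalpha1 (-1.62 to 0.27), Rpt4 (-0.354 to 0.0382), Rpn1 (-0.165 to 0.363), Rpn6 (-0.0117 to 0.681) and Rpt6R (-0.344 to 0.0594) changed sign with 1 or more libraries left out. Prosalpha2, Prosbeta6, Rpt5 and Rpn2 were named outside the rule, and such ranges were not drawn up for them. The length correction gave -0.0691 for Rpn1 and 0.00135 for Rpt6R. The cause of these changes was not tested. The genes called over the whole table numbered 56 lower and 196 higher, against 17 and 59 with library size alone, 24 and 90 with quantile scaling, 14 and 45 with no filter and 488 and 535 without duplication library A. Summing Prosalpha1 with CG30382, an alternative chosen after seeing the data, gave a ratio of summed CPM of 0.788 for the constitutive subunits. With 2 libraries per genotype, the 95% intervals of the constitutive subunits all include 0.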
